A study of Mus musculus with 18 samples.

Results

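Potassium channel genes that repolarize the ventricle were examined in mouse left ventricle, 9 in all: Kcnd2, Kcnd3, Kcnip2, Kcna5, Kcnj2, Kcnj12, Kcnj11, Kcnq1 and Kcnh2. They were chosen by name, with earlier results of these data known, and are 9 of the 55450 genes in the count table. All 9 passed the filter on low counts, which kept 16270 genes. The libraries came from male FVB/N mice that either carried a transgene for cardiac-specific overexpression of Gαq (Gnaq), the α subunit of a G protein that hypertrophic hormones activate, or were wild type (WT) littermates. From 4 weeks of age the mice ate control diet (CD) or chow with 0.5 mg/g of ertugliflozin (ERTU), an inhibitor of the sodium-glucose cotransporter SGLT2, for 16 weeks, and the ventricles were taken at 20 weeks. On CD there were 4 WT and 5 Gαq libraries, and on ERTU 5 WT and 4 Gαq libraries. The promoter that drives the transgene is not given in the sources used here.

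After each action potential, outward potassium currents bring the cardiomyocyte back to its resting potential. In the mouse ventricle the fast transient outward current, carried by Kv4 channels, and the rapidly activating Kv1.5 current do most of this work early in the action potential. Inward rectifiers of the Kir2 family set the resting potential, Kir6 channels open when ATP falls, and the slow and rapid delayed rectifiers (Kv7.1 and ERG) dominate late repolarization in larger mammals and contribute little in adult mice. Loss of transient outward and inward rectifier current is a textbook feature of hypertrophied and failing hearts.

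Each library held 15383566 to 20908363 counts. Gnaq itself was between 45.5 and 230 CPM (counts scaled to library size) in the 9 WT libraries. It was between 1641 and 11672 CPM in the 5 Gαq CD libraries and between 2236 and 5207 CPM in the 4 Gαq ERTU libraries, so every library matched its genotype label. Cardiomyocyte markers were abundant in all 18 libraries, their sum over 10 genes ranging from 73057 to 107967 CPM. Markers of atrial cardiomyocytes, which a ventricular sample should lack, summed to over 200 CPM in 4 libraries, 1 in each group: WT CD library 5, WT ERTU library 14, Gαq CD library 8 and Gαq ERTU library 20. Library numbers are those of the table's columns.

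The promoters of the 3 genes with the smallest adjusted p in the comparison of genotypes are shown to place them in the genome. RefSeq gave a start site for 7 of the 9 genes, and the 250 bases before it were read on the gene's strand (GRCm38.p6). For Kcnh2 and Kcnj12 that start is internal to the annotated gene. The Kcnh2 window, chr5:24329592-24329841 (-), lies within the gene at 24319589-24351604. The Kcnj12 window, chr11:61065554-61065803 (+), lies within the gene at 61022564-61071131. Capitals mark CACCC, the core letters bound by Krüppel-like factors, on either strand, and in Kcnj2 also the E-box CACGTG; no match overlapped another. The windows are chr6:21215096-21215345 (+) for Kcnd2, chr19:45816064-45816313 (-) for Kcnip2 and chr11:111065914-111066163 (+) for Kcnj2.
Kcnd2: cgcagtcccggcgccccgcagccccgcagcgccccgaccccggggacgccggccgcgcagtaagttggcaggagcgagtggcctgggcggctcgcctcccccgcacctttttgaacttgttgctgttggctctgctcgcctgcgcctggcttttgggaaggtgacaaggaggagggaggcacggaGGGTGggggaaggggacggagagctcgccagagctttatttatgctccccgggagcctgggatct
Kcnip2: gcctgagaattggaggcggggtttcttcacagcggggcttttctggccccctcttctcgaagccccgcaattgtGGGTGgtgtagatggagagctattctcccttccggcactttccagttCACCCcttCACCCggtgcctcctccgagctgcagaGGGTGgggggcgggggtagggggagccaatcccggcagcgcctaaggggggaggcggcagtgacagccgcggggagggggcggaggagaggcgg
Kcnj2: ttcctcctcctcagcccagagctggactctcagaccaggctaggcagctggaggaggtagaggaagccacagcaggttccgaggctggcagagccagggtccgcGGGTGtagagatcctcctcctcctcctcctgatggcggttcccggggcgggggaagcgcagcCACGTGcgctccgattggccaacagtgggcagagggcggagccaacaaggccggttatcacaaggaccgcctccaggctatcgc
All 7 windows held CACCC, with 1 match in Kcnd2, Kcnj2 and Kcnj12, 2 in Kcnd3 and Kcna5, 3 in Kcnh2 and 4 in Kcnip2, and so did 52% of 32851 promoters. The E-box was in Kcnj2 alone among the 7, and in 6.02% of all promoters. TATAAA was in none of the 7 and in 12.4% of all promoters. The windows were rich in G and C, from 53.2% in Kcna5 to 73.6% in Kcnh2.

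Per kilobase of exon, the order of the levels was headed by Kcnip2, the gene of the KChIP2 subunit that Kv4 channels need to reach the membrane. In WT CD it stood at 94.3 ± 6.73 CPM per kb (SD), followed by Kcnj11, the pore gene of the ATP-sensitive channel Kir6.2, at 41.4 ± 2.02. Kcnh2, the ERG channel gene, and Kcna5, the Kv1.5 gene, came next at 16.2 ± 1.74 and 16.1 ± 2.24 CPM per kb and did not differ beyond their spread. Kcnq1 followed at 8.44 ± 0.978 CPM per kb, its lowest library (7.45) just above the highest Kcnj2 library (7.40). Kcnj12 at 7.28 ± 1.98, Kcnj2 at 7.08 ± 0.477 and Kcnd2 at 7.01 ± 0.853 CPM per kb were within their spread of each other. Kcnd3, the Kv4.3 gene, was lowest at 1.97 ± 0.207 CPM per kb. Length here is that of all annotated exons of a gene merged, and that of Kcnd3 is the longest, at 9587 bases. Before division by length, Kcnd3 was at 18.9 CPM in WT CD, close to Kcnj12 at 20.0 CPM. Which exons the ventricle uses was not examined, so the order and the ratios between genes depend on that length. The 9 genes summed to 200 ± 5.64 CPM per kb in WT CD and 212 ± 23.2 in WT ERTU, against 150 ± 21.8 in Gαq CD and 160 ± 8.61 in Gαq ERTU. Kcnip2 made up 47.2% of that sum in WT CD and 43.6% in Gαq CD. On either diet the sum was lower in every Gαq library than in every WT library, at 125 to 176 against 193 to 207 CPM per kb on CD and at 149 to 168 against 174 to 233 on ERTU.

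**Figure D1:**
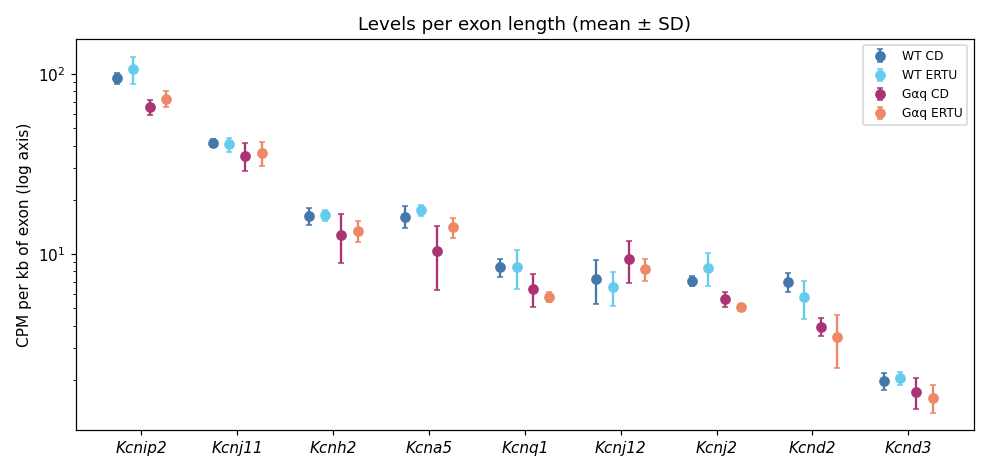
Mean level per kilobase of exon (log axis) of the 9 channel genes in the 4 groups, named by color; bars are SD over 4 or 5 libraries. Kcnip2 stood highest at 94.3 CPM per kb in WT CD and Kcnd3 lowest at 1.97, and Kcnj12 was the one gene whose Gαq means lay above both WT means.

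Gαq against WT was tested first over both diets, with diet in the model. Of the 9 genes 7 were lower in Gαq and none was higher, where 19.6% of all tested genes were called (9.92% lower). The 7 were Kcnd2, Kcnip2, Kcnj2, Kcnq1, Kcna5, Kcnh2 and Kcnd3. The log2 fold change was below 0 for 8 of the 9 (49.4% of all tested genes), with a median of -0.47 against 0.0038 over all tested genes. Kcnj12 was higher and Kcnj11 lower in Gαq, neither past the threshold. Without WT CD library 1 the count was 4, with Kcnd3, Kcna5 and Kcnh2 no longer called. The share of all genes called in that fit was not taken. In bulk tissue a lower level can come from fewer cardiomyocytes or from less RNA per cardiomyocyte, and the 2 cannot be told apart. Within a diet 2 genes were lower on CD (8.1% of all genes called, 4.1% lower) and 4 on ERTU (8.17% called, 4.24% lower). On each diet 8 of the 9 fold changes were below 0 (48.8% of all genes on CD, 50.1% on ERTU), with medians of -0.34 and -0.36.

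**Figure D2:**
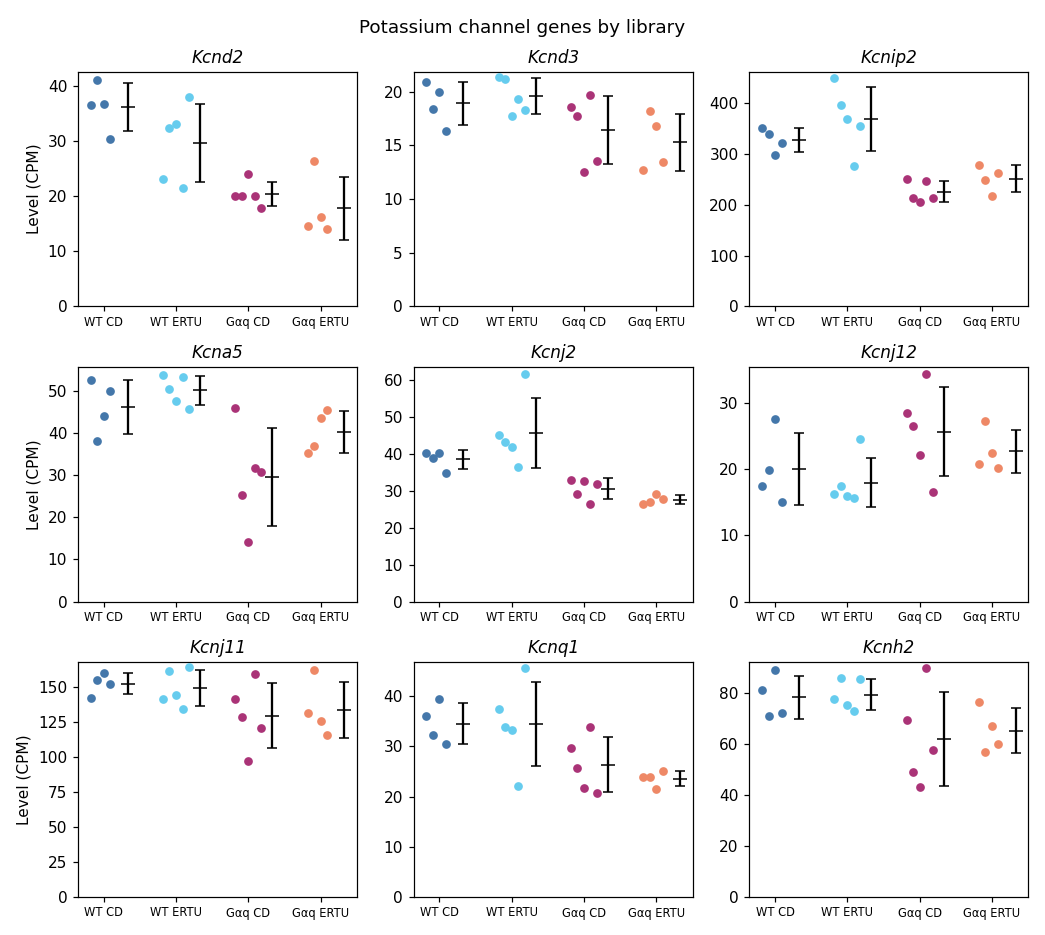
Level in CPM (linear axes from 0) of each of the 9 genes in every library, by group, with the group mean and SD beside the points. In Kcnj2 the highest Gαq library (33.1 CPM) lay below the lowest WT library (34.8 CPM); in the other genes some Gαq and WT libraries overlapped across the 2 diets.

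Of the transient outward channel, Kcnd2 and Kcnip2 fell in Gαq on both diets. Kcnd2 encodes Kv4.2, the main pore subunit of this current in the mouse ventricle. Its levels were 36.5, 41.0, 36.6 and 30.3 CPM in WT CD and 20.0, 20.1, 23.9, 20.0 and 17.8 CPM in Gαq CD. No Gαq library on CD reached the lowest WT library. On ERTU the WT libraries were at 23.1, 32.3, 33.1, 21.4 and 37.9 CPM and the Gαq libraries at 14.6, 26.3, 16.2 and 14.02 CPM. Here Gαq ERTU library 17, at 26.3 CPM, was above 2 WT libraries, and the other Gαq libraries were below all WT libraries. Kcnd2 fell 1.72-fold by genotype (log2 fold change -0.78 ± 0.13 SE, adjusted p = 0.000113). The change was -0.83 ± 0.18 on CD (adjusted p = 0.00591) and -0.74 ± 0.18 on ERTU (adjusted p = 0.0147). The call on ERTU was lost without Gαq ERTU library 16, 18 or 20 (adjusted p = 0.0566, 0.0552 and 0.0638), and with only the 2 groups in the fit (adjusted p = 0.0537).

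Kcnip2 was the most abundant of the genes. Its levels were 352, 339, 298 and 321 CPM in WT CD and 251, 213, 206, 248 and 214 CPM in Gαq CD, with no overlap. On ERTU the WT libraries were at 450.0, 397, 369, 277 and 355 CPM and the Gαq libraries at 278, 250.1, 218 and 263 CPM. The 2 groups on ERTU overlapped by 1 library each, WT ERTU library 14 at 277.0 CPM and Gαq ERTU library 16 at 278.1 CPM. Library 14 was also 1 of the 4 with atrial markers, and without those 4 the difference on ERTU was -0.66 ± 0.12 (adjusted p = 0.00269). Kcnip2 fell 1.46-fold by genotype (-0.54 ± 0.08, adjusted p = 5.29e-05), by -0.53 ± 0.12 on CD (adjusted p = 0.00644) and -0.55 ± 0.12 on ERTU (adjusted p = 0.00524). These calls held in all 18 fits that left out 1 library and in all 8 other settings.

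Kcnd3 encodes Kv4.3, a further pore subunit of the same current, and its values were low and close together. The levels ran from 16.4 to 20.9 CPM in WT CD, 17.8 to 21.4 in WT ERTU, 12.5 to 19.7 in Gαq CD and 12.7 to 18.2 in Gαq ERTU, so the genotypes overlapped on both diets. By genotype it was 1.22-fold lower (-0.28 ± 0.10, adjusted p = 0.0463). That call was lost in 13 of the 18 fits that left out 1 library, where adjusted p reached 0.0999, and held only without WT CD library 5, Gαq CD library 6, 7 or 9, or Gαq ERTU library 17. It was also lost without the 4 libraries with atrial markers (adjusted p = 0.0996), with no filter on low counts (adjusted p = 0.0720) and with 1 mean per group in place of the additive model (adjusted p = 0.0508). Within a diet Kcnd3 was at -0.21 ± 0.14 on CD (adjusted p = 0.440) and -0.36 ± 0.14 on ERTU (adjusted p = 0.128).

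The Kcnd2 to Kcnd3 ratio, from CPM per kb, was 3.56 ± 0.401 (SD) in WT CD and 2.40 ± 0.684 in Gαq CD. In WT CD it ran from 3.24 to 4.15. In Gαq CD 4 libraries lay between 1.89 and 2.44, and library 8 was at 3.56, inside the WT range. On ERTU the means were 2.85 ± 0.823 in WT and 2.14 ± 0.388 in Gαq, with overlapping libraries. The ratio of Kcnip2 to Kcnd2 plus Kcnd3 was 10.6 ± 1.25 in WT CD, 11.5 ± 1.14 in Gαq CD, 13.9 ± 3.14 in WT ERTU and 15.2 ± 4.32 in Gαq ERTU. The genotype means of that ratio differed by less than the SD on either diet. No test was run on these ratios.

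**Figure D3:**
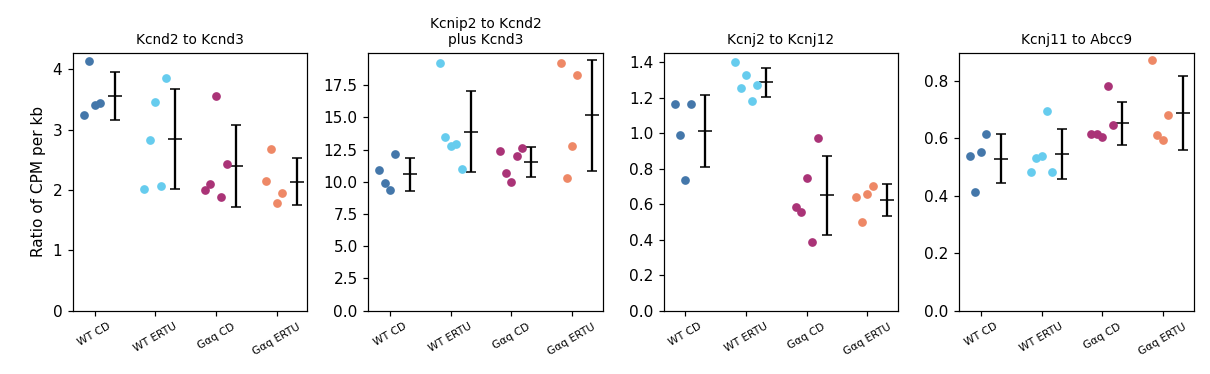
Ratios of CPM per kb within each library, by group, with the group mean and SD: Kcnd2 to Kcnd3, Kcnip2 to Kcnd2 plus Kcnd3, Kcnj2 to Kcnj12, and Kcnj11 to Abcc9 (linear axes from 0). The Kcnj2 to Kcnj12 ratio was 1.18 to 1.40 in WT ERTU and 0.498 to 0.701 in Gαq ERTU, with no overlap.

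Kcna5, the gene of Kv1.5, fell by genotype and varied most in Gαq CD. Its levels were 52.5, 38.1, 44.1 and 49.8 CPM in WT CD and 46.0, 25.2, 14.1, 31.6 and 30.8 CPM in Gαq CD. Gαq CD library 6 lay inside the WT range, and library 8, the one of that group with atrial markers over 200 CPM (704 CPM), was lowest. On ERTU all 4 Gαq libraries, at 35.2, 36.8, 43.6 and 45.5 CPM, were below the 5 WT libraries, at 53.6, 50.3, 47.5, 53.3 and 45.7 CPM, the gap being narrow. By genotype the fall was 1.39-fold (-0.48 ± 0.15, adjusted p = 0.0232), a call lost without WT CD library 1 (adjusted p = 0.0527). On CD the difference was -0.65 ± 0.20 (adjusted p = 0.0587) and on ERTU -0.31 ± 0.21 (adjusted p = 0.405). The difference on CD passed the threshold without Gαq CD library 6 (adjusted p = 0.00512) and in 4 of 8 other settings, with adjusted p from 0.0235 to 0.158 over the 8. The difference on ERTU passed in 0 of the 8, with adjusted p from 0.0798 to 0.468. In the main fit both differences were set against 1 spread shared by all 18 libraries, Gαq CD included.

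Of the inward rectifier genes, Kcnj2 fell and Kcnj12 did not. Kcnj2 encodes Kir2.1, the main channel of the resting potential in the ventricle. Its levels were 40.3, 38.9, 40.3 and 34.8 CPM in WT CD and 33.1, 29.1, 32.7, 26.3 and 31.9 CPM in Gαq CD. The WT ERTU libraries were at 45.0, 43.4, 41.8, 36.5 and 61.8 CPM and the Gαq ERTU libraries at 26.3, 26.9, 29.1 and 27.9 CPM. The genotypes did not overlap on either diet. Across both diets Kcnj2 fell 1.44-fold (-0.53 ± 0.09, adjusted p = 0.000314). On ERTU the difference was -0.73 ± 0.12 (adjusted p = 0.000647), called in all 18 leave-one-out fits. On CD it was -0.33 ± 0.12 (adjusted p = 0.0940) and passed the threshold without WT ERTU library 15, which held the highest Kcnj2 level (adjusted p = 0.0247), and under voom with sample quality weights (adjusted p = 0.0335). The share of all genes without overlap was 9.29% on CD and 10.9% on ERTU. Of the 9 channel genes, 3 did not overlap on CD (Kcnd2, Kcnip2 and Kcnj2) and 2 on ERTU (Kcna5 and Kcnj2), each time with Gαq lower, as for 4.6% and 5.49% of all genes.

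Kcnj12 encodes Kir2.2, a partner of Kir2.1 in the same channels, and was the one gene of the 9 with a higher mean in Gαq. It ranged from 15.1 to 27.6 CPM in WT CD, 15.6 to 24.5 in WT ERTU, 16.6 to 34.4 in Gαq CD and 20.1 to 27.3 in Gαq ERTU. The difference by genotype was 0.35 ± 0.13 (adjusted p = 0.0783), and it passed the threshold without WT CD library 4, Gαq CD library 10 or WT ERTU library 15 (adjusted p = 0.0254, 0.0262 and 0.0308). On CD it was 0.35 ± 0.20 (adjusted p = 0.325) and on ERTU 0.34 ± 0.20 (adjusted p = 0.335). Per kilobase, Kcnj2 stood to Kcnj12 at 1.01 ± 0.202 in WT CD and 1.29 ± 0.0827 in WT ERTU. In Gαq the ratio was 0.649 ± 0.221 on CD and 0.623 ± 0.0876 on ERTU. Among the CD libraries WT library 4 (0.737) was below Gαq libraries 8 (0.747) and 10 (0.972). On ERTU the 5 WT libraries were all above the 4 Gαq libraries.

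Kcnj11 encodes Kir6.2, the pore of the ATP-sensitive potassium channel that ties excitability to energy state. Its levels were 142, 155, 160 and 152 CPM in WT CD and 141, 128, 97.2, 160 and 120.5 CPM in Gαq CD. WT ERTU ranged from 134 to 164 CPM and Gαq ERTU from 116 to 162 CPM, so the groups overlapped on both diets. The genotype difference was -0.20 ± 0.08 (adjusted p = 0.107). It passed the threshold when library 9 of Gαq CD or library 17 of Gαq ERTU was left out (adjusted p = 0.0461 and 0.0361) and under voom with sample quality weights (adjusted p = 0.0295). Abcc9, the gene of its regulatory partner SUR2, fell in Gαq (-0.53 ± 0.12, adjusted p = 0.00304). The Kcnj11 to Abcc9 ratio was 0.530 ± 0.0846 in WT CD and 0.653 ± 0.0737 in Gαq CD, and 0.546 ± 0.0874 and 0.690 ± 0.129 on ERTU, with overlap on both diets.

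Both delayed rectifier genes were lower by genotype, Kcnq1 by the wider margin. Kcnq1 encodes Kv7.1, the pore of the slow current. Its levels were 36.1, 32.2, 39.4 and 30.5 CPM in WT CD and 29.6, 25.7, 21.8, 33.8 and 20.7 CPM in Gαq CD. On ERTU the WT libraries were at 37.5, 33.9, 33.2, 22.2 and 45.6 CPM and the Gαq libraries at 23.8, 23.9, 21.5 and 25.1 CPM. WT ERTU library 14 was the WT library inside the Gαq range. Kcnq1 fell 1.39-fold by genotype (-0.47 ± 0.12, adjusted p = 0.00571). It was at -0.40 ± 0.16 on CD (adjusted p = 0.160) and fell on ERTU (-0.55 ± 0.17, adjusted p = 0.0482). The call on ERTU was lost in 13 of 18 leave-one-out fits, with adjusted p up to 0.136, and held only without WT CD library 5, Gαq CD library 8, 9 or 10, or WT ERTU library 14. It was also lost with only the 2 groups in the fit and on the variance-stabilized values (adjusted p = 0.0639 and 0.0637). Kcnq1 lies in the same interval as 12 other annotated genes. Strand-specific counting kept apart those on the other strand, such as the antisense Kcnq1ot1. Others, such as Gm38321 and Gm37235, lie on the strand of Kcnq1. Kcnd2 and Kcnd3 also have annotated genes on their own strand within their intervals (Gm42583 and Gm43847 among them). Overlap of these genes with the channel exons was not examined. Kcne1, the gene of the β subunit that slows Kv7.1, was barely detected, with means from 0.577 to 1.03 CPM per group and no difference by genotype past the threshold (0.0061 ± 0.28).

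Kcnh2, the gene of ERG1 and the rapid delayed rectifier, was at 81.0, 71.1, 89.1 and 72.1 CPM in WT CD and at 69.5, 48.9, 43.2, 89.7 and 57.6 CPM in Gαq CD. Of the 5 Gαq CD libraries 4 were below all WT CD libraries, and library 9 was above them all. WT ERTU ranged from 72.7 to 85.7 CPM and Gαq ERTU from 56.7 to 76.6 CPM. By genotype Kcnh2 was 1.24-fold lower (-0.32 ± 0.11, adjusted p = 0.0469). The call was lost in 13 of 18 leave-one-out fits, with adjusted p up to 0.0954, and held only without WT CD library 5, Gαq CD library 6 or 9, WT ERTU library 14 or Gαq ERTU library 16. It was also lost without the 4 libraries with atrial markers (adjusted p = 0.108) and with 1 mean per group (adjusted p = 0.0555). On CD the difference was -0.34 ± 0.16 (adjusted p = 0.214) and on ERTU -0.29 ± 0.16 (adjusted p = 0.313). The 5 other genes called by genotype were called without those 4 libraries as well.

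**Figure D4:**
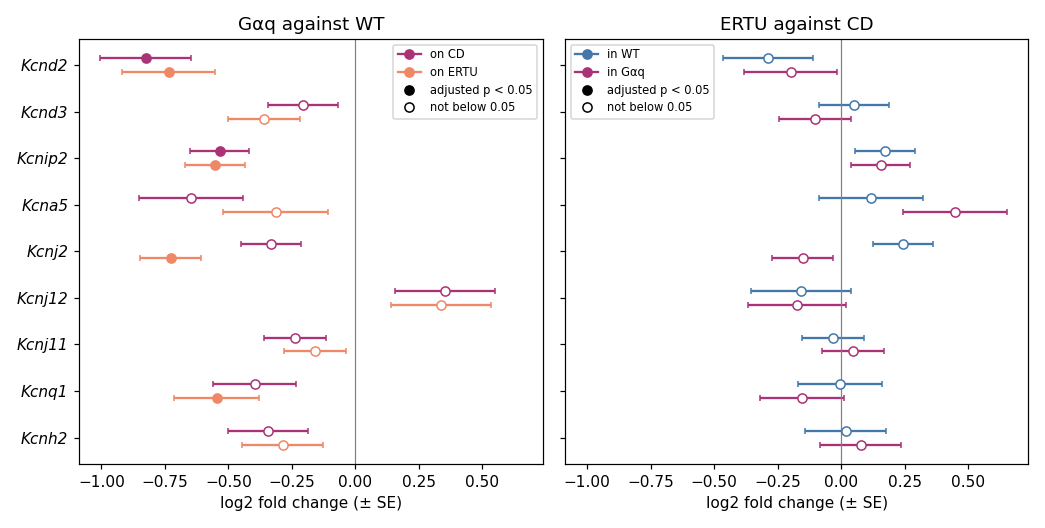
Log2 fold changes of the 9 genes with their SE, for Gαq against WT on each diet (left) and ERTU against CD in each genotype (right); filled points have an adjusted p under 0.05. Filled points are Kcnd2 and Kcnip2 on both diets and Kcnj2 and Kcnq1 on ERTU, all to the left of 0, and no ERTU effect is filled.

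ERTU against CD was compared over both genotypes and within each. None of the 9 genes passed the threshold by edgeR in any of the 3 comparisons, where 0% of all genes were called by diet, 0% in WT and 0.00615% in Gαq. At an unadjusted p under 0.05 the diet comparison held 0 of the 9 (7.7% of all genes), WT held 0 (2.24%) and Gαq held 1, Kcna5 (7.62%). DESeq2, voom and limma on the variance-stabilized values also gave 0 calls among the 9 in each comparison. The share of all genes that these methods called was not taken. In Gαq mice Kcna5 averaged 40.3 ± 5.00 CPM on ERTU and 29.6 ± 11.5 CPM on CD (0.45 ± 0.20, adjusted p = 0.653), with overlapping libraries. In WT mice Kcnj2 averaged 45.7 ± 9.55 CPM on ERTU and 38.5 ± 2.6 CPM on CD (0.24 ± 0.12, adjusted p = 1.0). Kcnd2 was at -0.29 ± 0.18 in WT and -0.20 ± 0.18 in Gαq, with 95% intervals of -0.66 to 0.084 and -0.58 to 0.18. Kcnip2 was at 0.17 ± 0.12 in WT and 0.16 ± 0.12 in Gαq, with intervals of -0.073 to 0.42 and -0.090 to 0.40. Over the 9 genes the intervals of the ERTU effect within a genotype reached from -0.66 (Kcnd2 in WT) to 0.88 (Kcna5 in Gαq). No gene of the 9 had groups without overlap for ERTU in WT (0.756% of all genes) or in Gαq (1.6%). Gαq ERTU libraries also carried less Gnaq RNA on average (3216 ± 1371 CPM) than Gαq CD libraries (7473 ± 3818 CPM), and its part in any diet difference within Gαq was not tested.

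The interaction of genotype and diet was called for 0 of the 9 by edgeR, and for 0% of all genes. At an unadjusted p under 0.05 it held 1 of the 9, Kcnj2 (1.92% of all genes). Kcnj2 had a larger genotype difference on ERTU than on CD by -0.40 ± 0.17 on the log2 scale (adjusted p = 1.0). Kcnd2 and Kcnip2 had interactions of 0.090 ± 0.26 and -0.018 ± 0.17. That Kcnj2 and Kcnq1 were called on ERTU and not on CD was thus not shown to be a difference between the diets.

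A list of 47 other genes of repolarization held accessory subunits, further potassium channels and regulators of these genes, and 41 of them passed the filter. By genotype 4 rose (Kcna4, Irx5, Irx3 and Kcnk2) and 8 fell (Kcnj3, Kcnk3, Kcnq5, Kcnv2, Kcnk1, Abcc9, Klf15 and Kcnn1), 12 of 41, and 29 did not pass, where 19.6% of all tested genes were called. The call of Kcnn1 was lost in 14 of 18 leave-one-out fits (adjusted p up to 0.0911). The list's median was -0.091. On CD 1 rose and 6 fell (8.1% of all genes called) and on ERTU 1 rose and 5 fell (8.17%). For ERTU against CD 0 were called in either genotype (0% of all genes in WT, 0.00615% in Gαq). The other 6 had too few counts to be tested: Dpp6, Dpp10, Kcnip4, Kcnb2, Kcne2 and Kcne1l.

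Of 6 tested genes for transient outward and Kv accessory subunits, Kcna4 rose and 5 did not pass. Kcna4 encodes Kv1.4, the pore of the slowly recovering transient outward current. It averaged 1.22 ± 0.531 CPM in WT CD, 0.946 ± 0.347 in WT ERTU, 2.50 ± 0.767 in Gαq CD and 3.09 ± 1.26 in Gαq ERTU (1.36 ± 0.26 by genotype, adjusted p = 0.000585). Kcna4 thus stayed low beside Kcnd2 even where it was highest: per kilobase it reached 0.640 CPM in Gαq ERTU against 3.45 for Kcnd2. Of 5 tested slow delayed Kv genes 1 fell, Kcnv2, the gene of a silent subunit that joins Kv2 channels (-1.30 ± 0.21, adjusted p = 9.43e-05). Of 2 genes of the acetylcholine-gated channel, best known from the atrium and the sinus node, Kcnj3 (Kir3.1) fell and Kcnj5 did not pass. Kcnj3 was at 47.8 to 61.1 CPM in WT CD, 47.1 to 65.3 in WT ERTU, 14.3 to 25.9 in Gαq CD and 19.6 to 28.5 in Gαq ERTU, with no overlap (-1.41 ± 0.11, adjusted p = 2.56e-08). Of 5 two-pore channel genes, Kcnk3 (TASK-1, a background channel) and Kcnk1 fell and Kcnk2 (TREK-1, opened by stretch) rose. Kcnk3 averaged 276 ± 27.1 CPM in WT CD and 180 ± 39.4 CPM in Gαq CD, and 311 ± 43.4 and 180 ± 10.4 CPM on ERTU (-0.70 ± 0.10, adjusted p = 2.00e-05). Kcnk1 and Kcnq5 were at 0.111 to 2.73 CPM, and their fold changes of -2.31 ± 0.39 and -1.94 ± 0.29 rest on 2 to 49 counts per library. On the deposited variance-stabilized values, a log2 scale that shrinks changes of low counts, the genotype differences of Kcnk1, Kcnq5 and Kcna4 were -0.71, -0.64 and 0.67, all past the threshold.

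Of 9 regulators of these channels 2 rose and 1 fell. Irx5, an Iroquois transcription factor known to repress Kcnd2 in the mouse ventricle, averaged 5.24 ± 0.355 CPM in WT CD and 11.4 ± 4.20 CPM in Gαq CD. On ERTU it was at 6.68 ± 1.53 CPM in WT and 10.5 ± 0.755 CPM in Gαq (0.88 ± 0.17 by genotype, adjusted p = 0.000719). Its relative Irx3, which is expressed in the conduction system, rose by 0.72 ± 0.18. Klf15, a Krüppel-like factor known to drive Kcnip2, was at 83.8 ± 21.8 CPM in WT CD, 114 ± 39.9 in WT ERTU, 57.5 ± 15.4 in Gαq CD and 74.0 ± 18.1 in Gαq ERTU. It fell by 0.58 on the log2 scale by genotype (SE 0.17, adjusted p = 0.0162), a call lost without the 4 libraries with atrial markers (adjusted p = 0.0673). The letters ACANNTGT, a motif of Iroquois factors, were found on either strand in 0 of the 7 channel gene windows. They were in 6.31% of all promoters of that length. The windows of Kcnh2 and Kcnj12 precede internal starts, and those before the first annotated exon were not read.

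**Figure D5:**
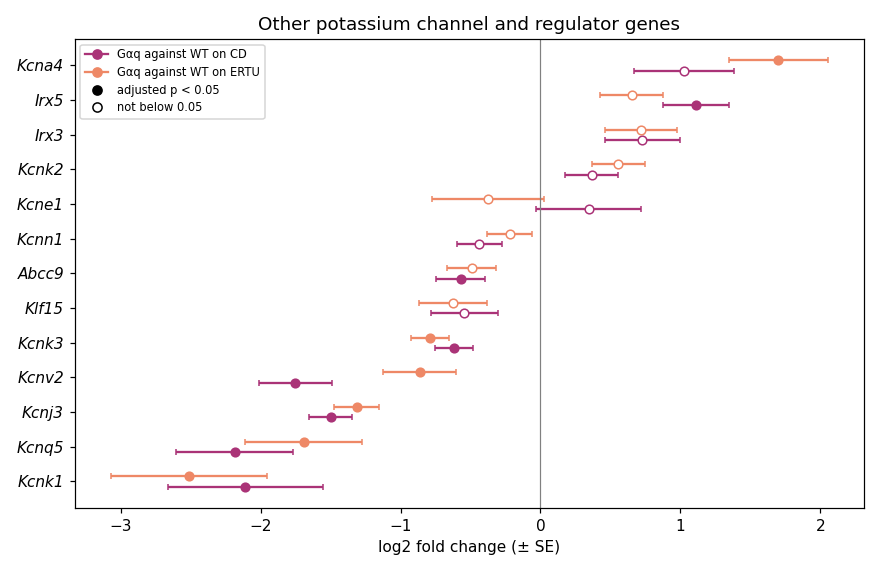
Log2 fold changes with SE for 13 other potassium channel and regulator genes, Gαq against WT on CD and on ERTU; filled points have an adjusted p under 0.05. Kcnj3 and Kcnk3 were lower on both diets, and Kcna4, Irx5, Irx3 and Kcnk2 had fold changes above 0 on both.

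Some cell type markers were also called by genotype, where 19.6% of all tested genes were called (9.92% lower). With 2 to 6 genes tested, 1 or 2 calls in a list cannot be told from that share. Of 10 cardiomyocyte markers 4 fell, 1 rose and 5 did not pass. Their sum had medians of 96350 CPM in WT CD and 78897 CPM in Gαq CD, and of 98945 and 82478 CPM on ERTU. Of 7 fibroblast markers 6 rose, their sum running from 1535 to 2907 CPM in WT CD and from 2899 to 4049 CPM in Gαq CD. Of 5 endothelial markers 2 fell. Of 5 lymphocyte markers 3 were tested and 1 rose, at sums under 6 CPM. Of 5 conduction system markers 1 fell and 4 did not pass, and of 6 mural markers 1 rose and 1 fell. Of 5 skeletal muscle markers 2 were tested and 1 rose, Tnnt3 (1.25 ± 0.38, adjusted p = 0.0248), the sum reaching 7.40 CPM at most. None of the 5 macrophage, 3 adipocyte and 2 neuron and Schwann cell markers tested passed by genotype. The part of these shifts in the channel genes' differences was not tested. The atrial markers had sums from 2.43 to 704 CPM and none of the 4 tested passed by genotype. Without the 4 libraries highest in them, 5 of the 9 channel genes were called by genotype, 2 on CD and 4 on ERTU. The share of all genes called without those libraries was not taken.

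The 9 genes were also set against each other across the 18 libraries, after the group means were removed. These correlations are descriptions over libraries that share their scaling and differ in depth. Kcnj12 followed Kcnq1 (r = 0.72), Kcnj11 (r = 0.67) and Kcnd3 (r = 0.59), although its mean differed from theirs in direction between genotypes. Kcnip2 followed Kcnq1 (r = 0.63) and had r = 0.05 with Kcnd2, whose protein it accompanies. Kcnd2 and Kcna5 had r = -0.39, and Kcna5 and Kcnh2 r = 0.56.

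For each gene the closest in pattern among 13089 genes was found by Pearson's r over the 18 libraries. Kcnd2 was nearest to Slf1 (r = 0.93, and 0.82 within groups). Kcnip2 was nearest to Cdk18 (0.97, 0.89 within groups), then to Atad3a (0.96) and Uqcrc1 (0.95). Kcna5 was nearest to Tob2 (0.95, 0.90 within groups). Kcnj2 was nearest to Mccc2 (0.89), Pdhx (0.88) and Hspd1 (0.88), with r within groups of 0.54 to 0.59. Kcnj12 was nearest to Inpp5j (0.94), Kcnj11 to Casz1 (0.90), Kcnq1 to Esrrb (0.92) and Slc2a4 (0.92), Kcnh2 to Mgat4b (0.87) and Kcnd3 to Rab14 (0.87).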

How the data were processed

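RNA of frozen left ventricles was made into poly(A)-selected libraries and sequenced from both ends by the study. The authors aligned reads to mm10 with STAR 2.6.0c and counted uniquely aligned proper pairs per nuclear-encoded Ensembl gene, on the same strand, with featureCounts (Subread 1.6.2). The deposited counts are raw. The deposited log2-scale values are variance-stabilized by the authors with DESeq2 and served as an alternative. Libraries were assigned to groups by the table's column names, 18 in all (15383566 to 20908363 counts).

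Counts were scaled by TMM, filtered with filterByExpr (genes left out held 0.0906% of counts) and tested with edgeR 4.0.16 (quasi-likelihood F test, R 4.3.3), with Benjamini-Hochberg adjustment over all 16270 genes and a threshold of 0.05. Genotype and diet were fitted additively, and other comparisons with 1 mean per group over all libraries. Group levels are TMM-scaled CPM; log2 CPM for correlations used a prior count of 2. Exon lengths and symbols came from GENCODE M21 (99.38% of IDs matched). P-values test a difference between groups against the spread between libraries. The code was tested on simulated data. Alternatives used DESeq2 1.42.0 and limma 3.58.1, other scaling and filters, and each library left out.

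The 9 genes were named in every comparison, and genes of the other list where they passed by genotype or had a role named for these currents; 1 gene of that list is not reported here. The genes, lists and tests were chosen with earlier results of these data known.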

Additional observations from a re-analysis of the deposited data

Results flagged for a closer look

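Of 104 groups of values, 5 had a library far from the others of its group by Dixon's ratio, the gap to the nearest library over the group's range, and chance gives 5.2. Kcnj12 stood at 24.5 CPM in WT ERTU library 15, against 15.6 to 17.5 CPM in the other 4 (ratio 0.79), the library that also held the highest Kcnj2 and Kcnq1 levels. Klf15 stood at 183 CPM in WT ERTU library 11, against 88.1 to 109 CPM (ratio 0.782), the library with the highest Kcnip2 level. Kcnk1 stood at 2.73 CPM in WT ERTU library 12, against 1.22 to 1.63 CPM (ratio 0.734). The Kcnj11 to Abcc9 ratio was 0.695 in WT ERTU library 14, against 0.482 to 0.539 (Dixon's ratio 0.734), and 0.781 in Gαq CD library 9, against 0.604 to 0.647 (Dixon's ratio 0.756). Library 14 was 1 of the 4 libraries with over 200 CPM of atrial markers.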

How the results depend on the processing

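No paired analysis was possible because the table's library numbers run across the series and were not linked to the replicate numbers of the labels. For Gαq against WT on CD, 4 of the 9 channel genes were called under voom with sample quality weights, against 2; on ERTU 2 were called with only the 2 groups in the fit, against 4. Over the 18 fits that left out 1 library, the count by genotype ran from 4 (without WT CD library 1) to 8, on CD from 2 to 3 and on ERTU from 2 (without Gαq ERTU library 16, 18 or 20) to 4; for diet, ERTU in either genotype and the interaction it stayed at 0 to 0. The share of all genes called was taken for the main fit only. Whether these counts moved with that share is therefore not shown, and the cause of these moves was not tested. The list of 47 other genes ran from 11 to 13 by genotype, 5 to 8 on CD and 4 to 9 on ERTU. No fold change of a called gene turned its direction under any setting run. Size factors in place of TMM moved the median of all genes by under 0.1 on the log2 scale. The planned setting without libraries of Myl7 over 10 times the median was not run, since no library exceeded it (highest 9.62 times); leaving out the 4 libraries with over 200 CPM of atrial markers was chosen after seeing the data.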
